A study of Sus scrofa with 21 samples.

Results

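The 8 cholesterol synthesis enzymes described here, in the testis of boars, are HMGCS1, IDI1, FDPS, FDFT1, SQLE, LSS, CYP51A1 and MSMO1, and are 8 of the 25880 pig genes counted in each library. MSMO1 (ENSSSCG00000008857) was selected on measured values, since its log2 fold change was positive in both Landrace high groups. The other 7 were chosen as enzymes of the same pathway. The level of MSMO1 in contrasts (i) and (iii) is thus what chose it, and the values of the 8 enzymes in those contrasts are given as a description. How many of the 8 lay past a threshold there is printed beside the share of all genes and supports nothing. Each symbol matched 1 Ensembl identifier, and all 8 passed the filter on low counts in every comparison, FDPS through few reads.

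The study asked how gene expression in testis differs between boars whose sperm show high or low hyperactivity, a vigorous whip-like swimming pattern. Testis tissue was taken at slaughter from purebred Landrace and Duroc boars of an artificial insemination station, and 1 RNA library per boar was sequenced, 13 from Landrace and 8 from Duroc. No treatment of the boars and no age at slaughter is given in the sources used here. The groups rest on repeated ejaculates measured before slaughter, so the phenotype and the tissue are not from the same day.

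Contrast (i) compared 4 Landrace boars with low hyperactivity at day 0 (L1 to L4) and 4 with high hyperactivity at day 0 (L5 to L8). Contrast (iii) compared 4 Landrace boars with a low change over 96 h of liquid storage of semen at 18 °C (L2, L9, L10 and L12) and 3 with a high change (L7, L13 and L15). L2 and L7 belong to both contrasts, which therefore are not independent. In Duroc, contrast (ii), the sample labels give D1 to D5 as High and D6, D7 and D9 as Low at day 0. The study's own list of boars, matched by name, gives the opposite group for 7 of these 8 boars. It places D5 in the high group as well. The names do not carry over for D2 and D3, however. These held 84446404 and 125576407 reads counted on genes, more than the list gives as sequenced for boars of those names. The labels were followed. D2 and D3, the deepest Duroc libraries, are labelled High, and the list places its deepest Duroc boars in its high group too. The exchange of groups seen by name, complete but for D5, thus rests on a match that fails for D2 and D3.

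The pathway begins when HMGCS1 joins acetyl units into HMG-CoA, the precursor of mevalonate, and it runs through isoprenoids (IDI1, FDPS), squalene (FDFT1, SQLE) and the first sterol, lanosterol (LSS), to cholesterol. CYP51A1 and MSMO1 remove methyl groups from lanosterol. Transcription of these genes is driven by the sterol-sensing factors SREBP1 and SREBP2, encoded by SREBF1 and SREBF2, when cell sterol is low. In testis, Leydig cells use cholesterol to make androgens, while spermatocytes and spermatids carry high levels of some of the enzymes, CYP51A1 among them, and make meiosis-activating sterols.

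In the RefSeq annotation of Sscrofa11.1, HMGCS1 lies at chr16:27936225-27957261, FDPS at chr4:94500140-94514820, SQLE at chr4:14669789-14700152, FDFT1 at chr14:14976259-15010701, CYP51A1 at chr9:72057506-72079587 and MSMO1 at chr8:43726834-43745784. LSS is on an unplaced sequence, and IDI1 was not matched. The counts per gene are sums over all its exons.

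The libraries held 41358671 to 125576407 reads counted on genes, with a median of 58530621. On the first dimension of multidimensional scaling, L8 (1.25) and D2 (1.37) lay farthest to one side, and these 2 libraries also had the lowest scaling factors, 0.843 and 0.859. The 4 low boars of contrast (i) lay between -1.31 and -0.614 on that dimension and the 4 high boars between 0.0751 and 1.25. Markers of spermatids summed to between 5309 and 11771 CPM (read count per gene relative to the scaled size of its library) and markers of Leydig cells to between 595 and 4553 CPM, as the tissue label requires, while AMH of Sertoli cells and NANOS2 of spermatogonia were at 0 in all 21 libraries.

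The 8 enzymes differed widely in how much they varied between boars. FDFT1, which joins farnesyl units into squalene, ranged from 135 to 183 CPM over the 21 libraries, a 1.36-fold range, and the SD of its log2 CPM, 0.12, was above that of 0.67% of the 13126 genes with adequate counts. CYP51A1 ranged 1.73-fold, from 531 to 916 CPM, and SQLE, which oxidises squalene, ranged 1.83-fold, from 127 to 232 CPM. HMGCS1 ranged 3.02-fold, from 269 to 814 CPM, with an SD of 0.39 against a median of 0.35 over all genes. The other 4 varied more than most genes.

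IDI1, which interconverts the 2 isoprenoid building blocks, ranged 3.83-fold, from 22.1 to 84.6 CPM. MSMO1 ranged 7.08-fold, from 43.2 CPM in L10 to 306 CPM in L6, and its SD of 0.73 was above that of 90.2% of genes. FDPS, which builds farnesyl diphosphate, ranged 9.57-fold and LSS ranged 11.3-fold, with SDs of 0.91 and 0.82. FDPS was measured on few reads, between 26 and 423 per library, and between 0.471 and 4.5 CPM. LSS was measured on 160 to 1192 reads and between 1.96 and 22.2 CPM.

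**Figure D1:**
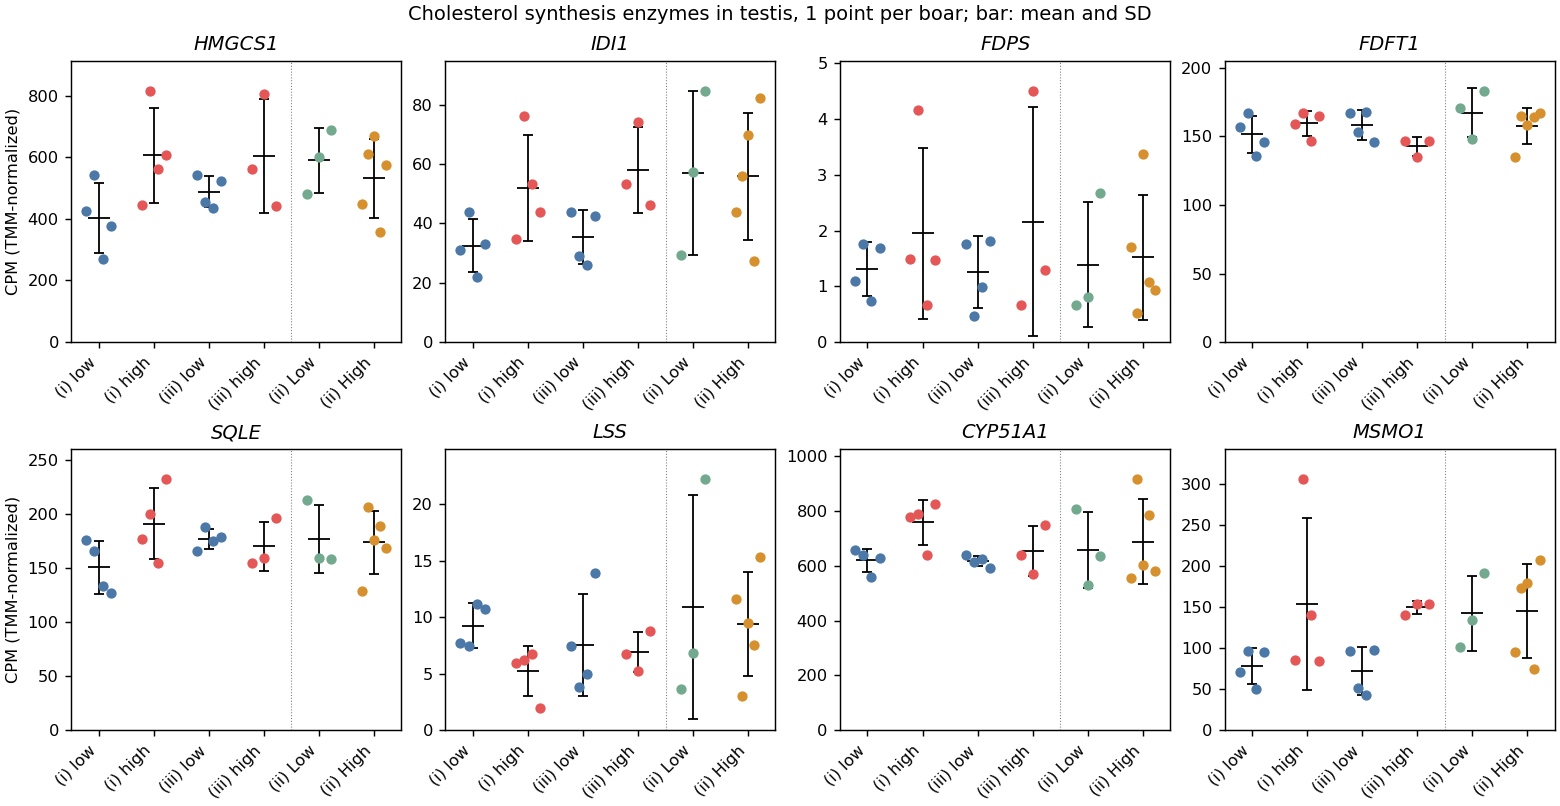
Level of each enzyme gene in CPM (vertical axis, from 0) in the 6 groups of boars, with 1 point per boar and the mean and SD as bars; L2 and L7 appear in both Landrace contrasts. MSMO1 in the high group of contrast (iii) lies at 141 to 154 CPM, above the 43.2 to 97.2 CPM of the low group, while the Duroc groups overlap for each of the 8 genes.

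The enzyme that opens the series, HMGCS1, was measured in the low boars of contrast (i) at 424, 541, 269 and 376 CPM for L1 to L4, and in the high boars at 444, 814, 563 and 606 CPM for L5 to L8. The high boars were mostly above the low boars, but L5 lay below L2, so the groups overlapped. The fitted log2 fold change, high over low, was 0.59 ± 0.22 (SE, n = 4 and 4).

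In contrast (iii), HMGCS1 was at 541, 456, 434 and 521 CPM in L2, L9, L10 and L12, and at 563, 805 and 441 CPM in L7, L13 and L15. The value of L15 lay inside the low range, and the log2 fold change was 0.31 ± 0.18 (SE, n = 3 and 4). It was 0.06 without L13, the boar with the highest value.

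IDI1 was at 31, 44, 22.1 and 33.1 CPM in L1 to L4 and at 34.8, 76.4, 53.3 and 43.7 CPM in L5 to L8. L6 was highest, and L5 and L8 lay below L2. For IDI1 the log2 fold change was 0.68 ± 0.25 (SE), and 0.45 without L6.

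In contrast (iii), IDI1 was at 44, 29.1, 26 and 42.5 CPM in the low boars and at 53.3, 74.1 and 46.3 CPM in the high boars. Each high boar was above each low boar, and L15 in the high group lay closest to L2 in the low group. This gave a log2 fold change of 0.71 ± 0.22 (SE).

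FDPS was at 0.737 to 1.75 CPM in the low boars of contrast (i) and at 1.49, 4.17, 0.667 and 1.47 CPM in L5 to L8. One boar, L6, set the difference, for which the log2 fold change was 0.56 ± 0.50 (SE) with L6 and -0.11 without. In contrast (iii), L13 stood apart in the same way at 4.5 CPM against 0.667 and 1.3 CPM in L7 and L15, and the log2 fold change went from 0.78 ± 0.62 (SE) to -0.35 when L13 was left out.

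FDFT1 averaged 151 ± 13.4 CPM (SD, n = 4) in the low and 160 ± 8.91 CPM (SD, n = 4) in the high boars of contrast (i), and 158 ± 10.7 (SD, n = 4) and 143 ± 6.9 CPM (SD, n = 3) in contrast (iii). The fitted log2 fold changes were 0.09 ± 0.12 and -0.15 ± 0.12 (SE), and the groups overlapped in both contrasts.

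SQLE was at 127 to 176 CPM in the low boars of contrast (i) and at 155 to 232 CPM in the high boars, and the log2 fold change was 0.35 ± 0.15 (SE). L8 held the highest value, and L7 lay within the low range. In contrast (iii) the low boars were at 166 to 188 CPM and the high boars at 155 to 196 CPM, with a log2 fold change of -0.06 ± 0.13 (SE).

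LSS, which closes the ring of the squalene epoxide to give lanosterol, had the opposite sign in contrast (i). It was at 7.71, 7.42, 11.2 and 10.7 CPM in L1 to L4 and at 5.91, 6.23, 6.77 and 1.96 CPM in L5 to L8. The high boars were all below the low boars, and L8 lay far below the other 3. Its log2 fold change was -0.81 ± 0.34 (SE), and -0.52 without L8.

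In contrast (iii), LSS was at 7.42, 3.82, 4.97 and 13.9 CPM in L2, L9, L10 and L12 and at 6.77, 5.22 and 8.73 CPM in L7, L13 and L15. The high boars lay within the range of the low boars, and the log2 fold change was -0.11 ± 0.39 (SE), and 0.36 without L12.

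CYP51A1, which removes the first methyl group of lanosterol, was at 656, 639, 560 and 627 CPM in L1 to L4 and at 777, 790, 639 and 827 CPM in L5 to L8. L5, L6 and L8 were above each low boar and L7 was not, with a log2 fold change of 0.30 ± 0.12 (SE). In contrast (iii), the low boars were at 592 to 639 CPM and the high boars at 571 to 750 CPM, with a log2 fold change of 0.08 ± 0.13 (SE).

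MSMO1, the oxidase that acts after CYP51A1, was at 71.4, 96.8, 50.2 and 95.5 CPM in L1 to L4 and at 85.7, 306, 141 and 83.9 CPM in L5 to L8. L6 and L7 were above the low boars, whereas L5 and L8 lay inside the low range. The log2 fold change by which it was chosen was 0.97 ± 0.37 (SE), and it was 0.43 without L6.

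In contrast (iii), MSMO1 was at 96.8, 51.4, 43.2 and 97.2 CPM in L2, L9, L10 and L12, and at 141, 154 and 154 CPM in L7, L13 and L15. The 3 high boars were close together and above each low boar. Their log2 fold change over the low boars was 1.06 ± 0.26 (SE), and leaving out 1 boar moved it between 0.87 and 1.24. Without L2 and L7, the boars of both contrasts, it was 1.09 in contrast (i) and 1.27 in contrast (iii).

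**Figure D2:**
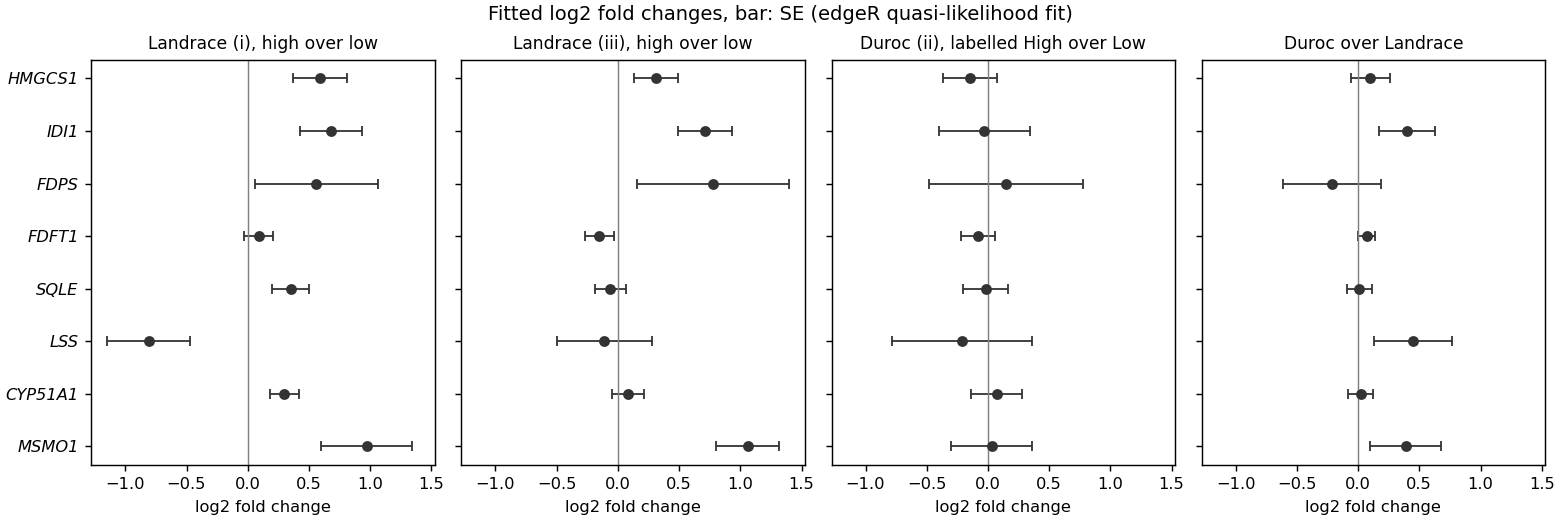
Fitted log2 fold change (horizontal axis) of each enzyme gene in the 4 comparisons, with the SE as a bar. In contrast (i), 7 of 8 lie right of 0 and LSS lies at -0.81, and in Duroc the 8 lie between -0.21 and 0.15.

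Of the 8 enzymes, 7 had a positive log2 fold change in contrast (i) and 1 a negative one, with a median of 0.46 against 0.03 over all genes tested. None of the 8 passed edgeR's quasi-likelihood test at an adjusted p under 0.05, a threshold that 20.7% of the 12979 genes tested passed, 4.82% as higher and 15.8% as lower. At an unadjusted p under 0.05 it was 6 of 8, against 41.7% of genes. The likelihood ratio test called HMGCS1, IDI1 and MSMO1, against 26.4% of genes, and DESeq2 called HMGCS1 and IDI1, against 30.2% of genes. The groups did not overlap for LSS, as for 20.0% of genes in that direction, and overlapped for the 7 others, where 8.24% of genes were higher without overlap. Since MSMO1 was chosen on this contrast, nothing is read from these counts.

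In contrast (iii), 5 of 8 were positive and 3 negative, with a median of 0.19 against 0.00 over all genes. The quasi-likelihood test called 0 of 8, as it called 0% of the 12824 genes tested. At an unadjusted p under 0.05 it was 2 of 8 against 19.8% of genes, and the likelihood ratio test and DESeq2 each called MSMO1, against 0.499% and 0.905% of genes. IDI1 and MSMO1 were higher without overlap between the groups, as were 7.45% of genes, and 8.71% of genes were lower without overlap. The selection of MSMO1 on its values in this contrast fixed its place in these counts, and nothing is read from them.

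Duroc boars took no part in choosing MSMO1, so the enzymes were tested there. MSMO1 was at 95, 173, 179, 74.6 and 207 CPM in D1 to D5, labelled High, and at 102, 134 and 192 CPM in D6, D7 and D9, labelled Low. The groups overlapped over nearly their whole range. The log2 fold change was 0.03 ± 0.33 (SE), with a 95% interval from -0.69 to 0.75, and did not pass (edgeR quasi-likelihood, adjusted p = 1, two-sided exact permutation p = 1).

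IDI1 was at 44, 55.9, 69.7, 27.4 and 82.3 CPM in the boars labelled High and at 29.3, 57.4 and 84.6 CPM in those labelled Low, with a log2 fold change of -0.03 ± 0.37 (SE) and a 95% interval from -0.84 to 0.78. HMGCS1 was at 447, 611, 668, 356 and 574 CPM and at 479, 602 and 689 CPM, with a log2 fold change of -0.15 ± 0.22 (SE) and an interval from -0.64 to 0.33. Neither passed (edgeR quasi-likelihood, adjusted p = 1).

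LSS was at 11.6, 3, 9.52, 7.51 and 15.3 CPM in the boars labelled High and at 3.68, 6.8 and 22.2 CPM in those labelled Low, and D9 held the highest value of the 21 libraries. Its log2 fold change was -0.21 ± 0.57 (SE) with D9 and 0.84 without. The fold changes of FDPS (0.15 ± 0.63), FDFT1 (-0.08 ± 0.14), SQLE (-0.02 ± 0.18) and CYP51A1 (0.07 ± 0.21) were also smaller than their SEs. The quasi-likelihood test called 0 of 8 enzymes and 0% of the 13043 genes tested. At an unadjusted p under 0.05 it was 0 of 8 against 1.21% of genes, and the likelihood ratio test and DESeq2 each called 0 of 8 and 0% of genes. Differences between a log2 fold change in Duroc and in Landrace were not tested.

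Between the breeds, the enzymes did not differ beyond the spread between boars. MSMO1 averaged 145 ± 50 CPM (SD, n = 8) in Duroc and 110 ± 69.6 CPM (SD, n = 13) in Landrace, with medians of 154 and 95.5 CPM and ranges of 74.6 to 207 and 43.2 to 306 CPM. The log2 fold change, Duroc over Landrace, was 0.39 ± 0.29 (SE), with a 95% interval from -0.20 to 0.99 (edgeR quasi-likelihood, adjusted p = 0.76, two-sided exact permutation p = 0.117). It was 0.63 without L6, the Landrace boar with the highest level.

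IDI1 averaged 56.3 ± 21.9 CPM (SD, n = 8) in Duroc and 42.8 ± 16.9 CPM (SD, n = 13) in Landrace, a log2 fold change of 0.40 ± 0.23 (SE, edgeR quasi-likelihood, adjusted p = 0.58). LSS averaged 9.94 ± 6.37 and 7.27 ± 3.25 CPM (SD), a log2 fold change of 0.45 ± 0.32 (SE, edgeR quasi-likelihood, adjusted p = 0.745), which was 0.17 without D9. FDPS had a negative log2 fold change, -0.21 ± 0.40 (SE), that came to 0.00 without L13.

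The other 4 enzymes lay near 0 between breeds. The log2 fold changes were 0.10 ± 0.16 for HMGCS1, 0.07 ± 0.07 for FDFT1, 0.01 ± 0.10 for SQLE and 0.02 ± 0.10 for CYP51A1 (SE), and the 95% interval of SQLE reached from -0.21 to 0.22. Of the 8 enzymes, 0 passed the quasi-likelihood test, which 2.88% of the 13126 genes tested passed. At an unadjusted p under 0.05 it was 0 of 8 against 12.3% of genes, and the likelihood ratio test and DESeq2 each called 0 of 8 against 4.07% and 4.28% of genes.

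How the enzymes moved with each other from boar to boar was tested over the 8 Duroc boars, for the 28 pairs, with exact permutation p-values adjusted over the pairs by Benjamini-Hochberg. IDI1 and MSMO1 were correlated with Pearson's r = 0.93 (exact permutation p = 0.000967, adjusted p = 0.0271) and Spearman's rho = 0.93 (exact permutation p = 0.00223, adjusted p = 0.0625). Without the 2 boars farthest from the median, r was 0.90. HMGCS1 and MSMO1 had r = 0.92 (exact permutation p = 0.00258, adjusted p = 0.0361) and rho = 0.76 (exact permutation p = 0.0368, adjusted p = 0.206), and r was 0.75 without the 2 farthest boars. These 2 pairs passed by Pearson's r, 0 pairs passed by Spearman's rho, and 6 pairs had an unadjusted p under 0.05 by Pearson's r. By Pearson's r, 0 pairs passed when D2, D3, D4, D7 or D9 was left out, while r of IDI1 and MSMO1 stayed between 0.89 and 0.95 and r of HMGCS1 and MSMO1 between 0.85 and 0.98 without any 1 boar.

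HMGCS1 and IDI1 had r = 0.87 (exact permutation p = 0.00548, adjusted p = 0.0512), and SQLE and CYP51A1 had r = 0.83 (exact permutation p = 0.0091, adjusted p = 0.0637). LSS and SQLE had r = -0.71 (exact permutation p = 0.0491, adjusted p = 0.229). In these Duroc boars, SQLE and MSMO1 had r = -0.01 and CYP51A1 and MSMO1 had r = -0.21.

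Over the 13 Landrace boars, some of which served to choose MSMO1, the correlations are given as a description. IDI1 had r = 0.92 with MSMO1 and 0.91 with HMGCS1, and HMGCS1 and MSMO1 had r = 0.72. SQLE and CYP51A1 had r = 0.71. LSS had negative values with SQLE (-0.63), CYP51A1 (-0.48), FDFT1 (-0.47) and HMGCS1 (-0.41).

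**Figure D3:**
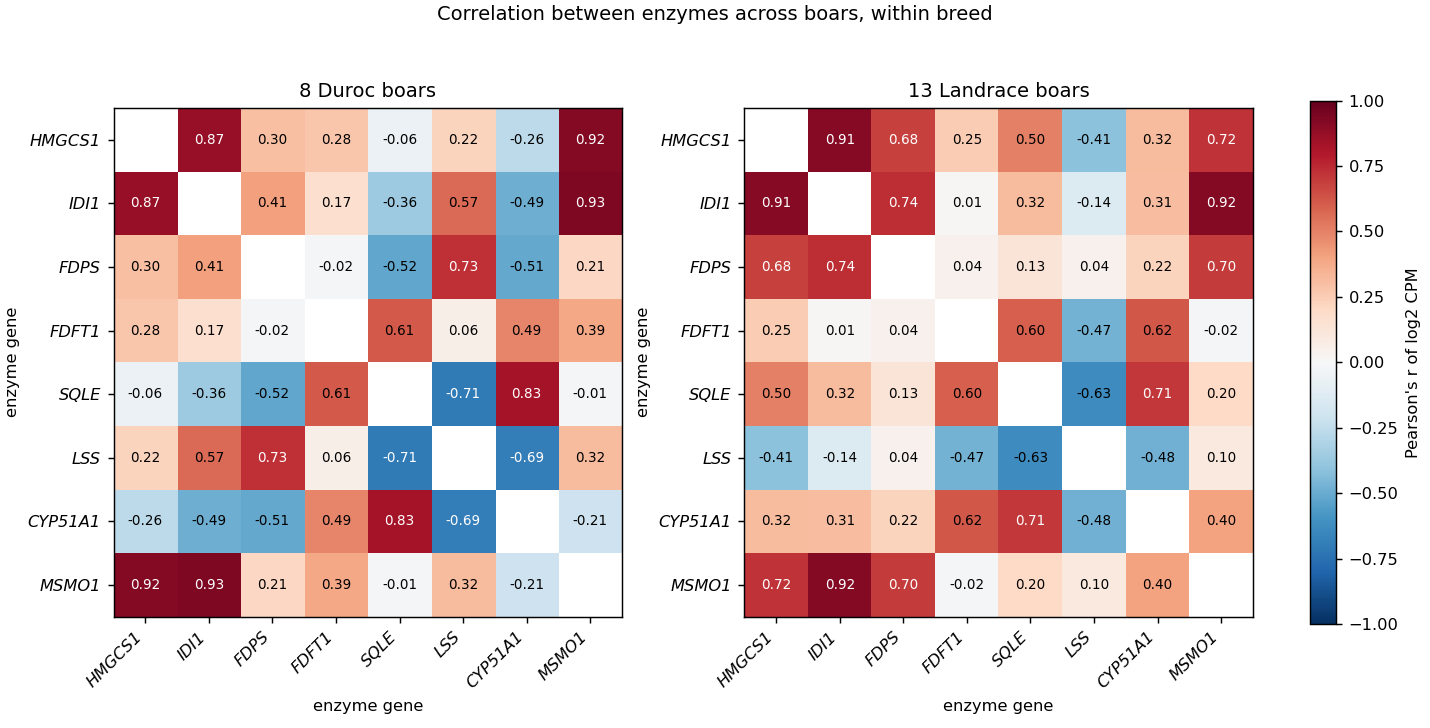
Pearson's r of log2 CPM between each pair of enzyme genes over 8 Duroc boars (left) and 13 Landrace boars (right), with r as the colour and the printed value. HMGCS1, IDI1 and MSMO1 have r from 0.72 to 0.93 with each other in both breeds, SQLE and CYP51A1 have 0.83 and 0.71, and LSS has negative values with both of these.

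Testis holds several cell types, and in bulk RNA fewer cells of a type and less RNA per cell cannot be told apart. Of the 7 Leydig cell markers, 6, STAR and CYP17A1 of androgen synthesis among them, were matched and tested. Their log2 fold changes were positive for 6 of 6 in both Landrace contrasts, with medians of 0.34 and 0.59, and 0 of 6 passed in either (edgeR quasi-likelihood, 1 and 2 of 6 at an unadjusted p under 0.05, and 1 and 0 by the likelihood ratio test as by DESeq2). Over all genes, 41.7% and 19.8% had an unadjusted p under 0.05. The summed Leydig cell level was 1746 to 2204 CPM in the low and 595 to 4553 CPM in the high boars of contrast (i), and 609 to 2204 and 1486 to 2540 CPM in those of contrast (iii). L6, with the highest MSMO1, also had the highest Leydig cell sum, 4553 CPM, and L9 and L10, with MSMO1 at 51.4 and 43.2 CPM, had 812 and 609 CPM. Other boars broke this order. L8 had the lowest sum, 595 CPM, with MSMO1 at 83.9 CPM, and L13 had 1486 CPM with MSMO1 at 154 CPM. L2 and L12 had 2204 and 2061 CPM, with MSMO1 at 96.8 and 97.2 CPM.

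Among Duroc boars the Leydig cell sums fell in separate clusters, so no r over all 8 is given. D3, D5 and D9 had sums of 2942, 3099 and 3500 CPM, and MSMO1 at 179, 207 and 192 CPM, while the 5 others had sums of 1225 to 1663 CPM and MSMO1 at 74.6 to 173 CPM. LSS was at 9.52, 15.3 and 22.2 CPM in D3, D5 and D9 and at 3 to 11.6 CPM in the others. SQLE did not follow the same order, at 158 to 176 CPM in D3, D5 and D9 and 129 to 213 CPM in the others. In Landrace, r with the Leydig cell sum was 0.72 for MSMO1, 0.67 for LSS, 0.46 for IDI1, 0.15 for HMGCS1, -0.29 for SQLE and 0.04 for CYP51A1, given as a description. LSS was not particular to Leydig cell markers, with r = 0.70 for the peritubular and 0.70 for the endothelial sum. With the peritubular sum, r was -0.68 for SQLE and -0.76 for CYP51A1.

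Spermatocyte markers, 6 of 7 matched, had positive log2 fold changes for 6 of 6 in contrast (i), with a median of 0.49. Of these, 1 of 6 passed, beside 4.82% of all genes passing as higher. It was DMC1 of meiotic recombination at 0.50 ± 0.14 (SE, edgeR quasi-likelihood, adjusted p = 0.0308). The summed level of spermatocyte markers was 960 to 1257 CPM in the low and 1272 to 2019 CPM in the high boars, without overlap. L8, with the highest SQLE and the lowest LSS, had the highest sum, and D2, with the highest CYP51A1, had 1941 CPM. In contrast (iii) 0 of 6 passed, 3 were positive, and the sums were 1060 to 1421 and 1211 to 1423 CPM.

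Over the 13 Landrace boars, r with the spermatocyte sum was 0.71 for SQLE, 0.66 for CYP51A1 and -0.76 for LSS, as a description. Over the 8 Duroc boars it was 0.58 for SQLE (exact permutation p = 0.137), 0.43 for CYP51A1 (exact permutation p = 0.298) and -0.74 for LSS (exact permutation p = 0.0354, adjusted p = 0.247), with Spearman's rho of 0.60, 0.24 and -0.74. Without the 2 boars farthest from the median, r was 0.37, -0.16 and -0.34, so the values for CYP51A1 and LSS rest largely on those boars. Of the 64 relations between an enzyme and a marker list, 12 had an unadjusted p under 0.05 by Pearson's r and 0 passed after adjustment. The smallest p was that of LSS with the peritubular sum (r = 0.89, exact permutation p = 0.00404, adjusted p = 0.238). Those sums were 117, 104 and 87.9 CPM in D1, D5 and D9, apart from 24.9 to 53 CPM in the others. LSS and the endothelial sum had r = 0.79 (exact permutation p = 0.0223, adjusted p = 0.238). Marker sums and enzyme levels share libraries and scaling, and the part of cell type makeup in the enzymes' values was not tested.

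**Figure D4:**
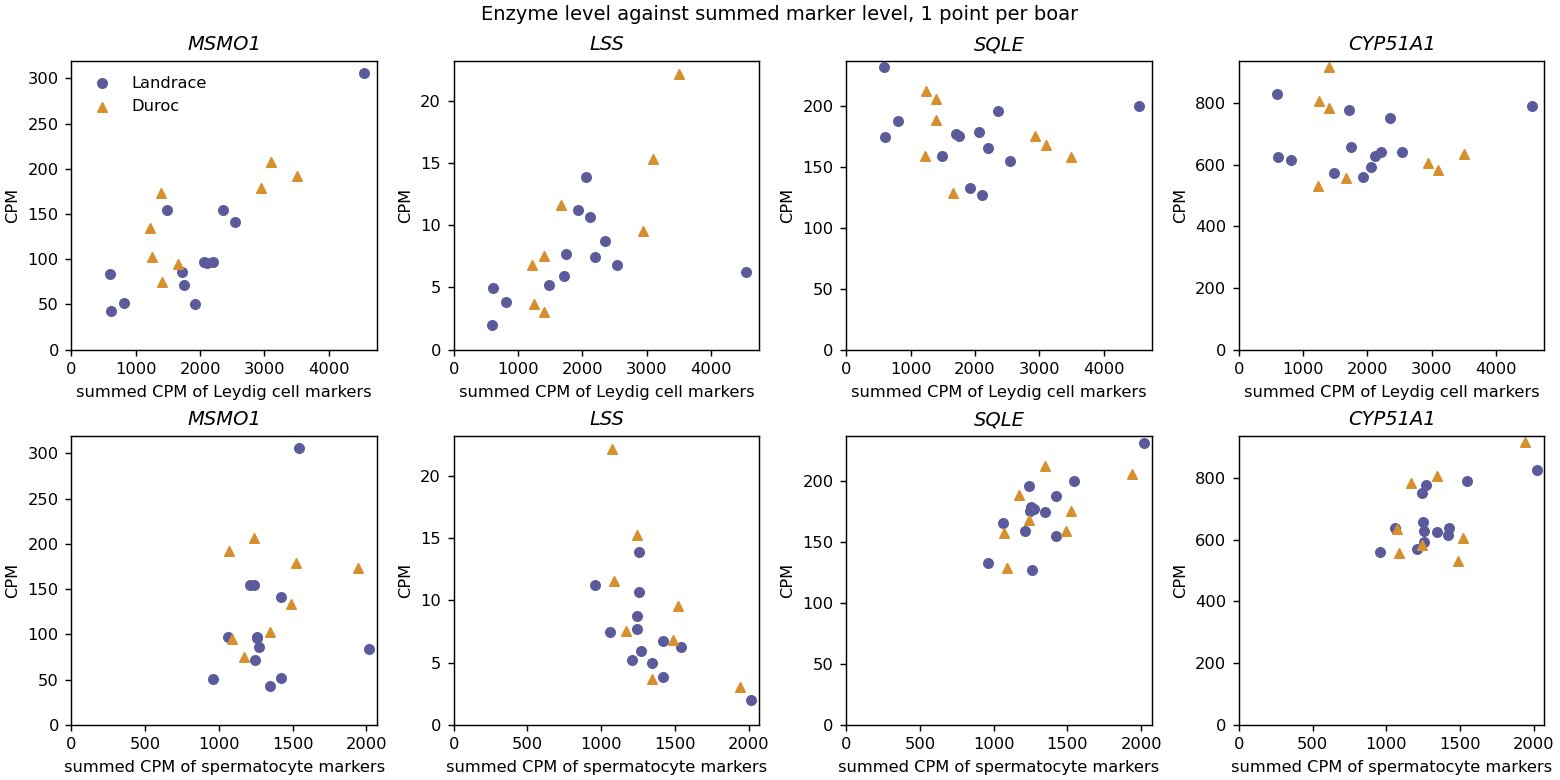
Level of MSMO1, LSS, SQLE and CYP51A1 in CPM (vertical axis) against the summed CPM of Leydig cell markers (upper row) and spermatocyte markers (lower row), 1 point per boar, circles for Landrace and triangles for Duroc. MSMO1 is highest, at 306 CPM, in the boar with the highest Leydig cell sum, 4553 CPM, and LSS is lowest, at 1.96 CPM, in the boar with the highest spermatocyte sum, 2019 CPM.

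The other marker lists in contrast (i) gave 2 of 6 spermatid genes lower (PRM1 and TNP2), 2 of 4 peritubular genes lower (MYH11 and DES), and 0 of 6 Sertoli, 0 of 5 spermatogonial, 0 of 3 endothelial and 0 of 2 macrophage genes passing. Over all genes in contrast (i), 15.8% passed as lower and 4.82% as higher. In contrast (iii) and in Duroc, 0 genes of any marker list passed, where 0% of all genes did. Between breeds, GATA4 of Sertoli cells was higher in Duroc (log2 fold change 0.74, edgeR quasi-likelihood, adjusted p = 0.00692) and KIT of spermatogonia lower (-1.40, adjusted p = 0.000678), and 0 genes of the 6 other lists passed.

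Of the other synthesis enzymes, 12 of 13 were matched and 9 tested in contrast (i), of which 0 passed (edgeR quasi-likelihood). At an unadjusted p under 0.05 it was 3 of 9, against 41.7% of all genes. The likelihood ratio test called 0 of 9 against 26.4% of genes, and DESeq2 called 1 of 9, SC5D, against 30.2%. Of the 9, 5 were positive and 4 negative, with a median log2 fold change of 0.12. SC5D, a late enzyme that sets a double bond of the sterol ring and is named after its values were seen, had a log2 fold change of 0.72 ± 0.31 (SE, edgeR quasi-likelihood, adjusted p = 0.0976).

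Of the 6 genes of sterol sensing tested in contrast (i), 4 were lower in the high boars and 0 higher, beside 15.8% of all genes lower. The 4 include SREBF1, which was measured on few reads and passed the filter mainly through the low boars. SREBF2 was at 20.4 to 27.2 CPM in the low and 9.48 to 16.6 CPM in the high boars, a log2 fold change of -0.66 ± 0.20 (SE, edgeR quasi-likelihood, adjusted p = 0.042). SREBF1 was at 1.22 to 2.89 and 0.562 to 1.11 CPM, a log2 fold change of -1.42 ± 0.36 (SE, adjusted p = 0.0249). It met the filter of 1 CPM through the low boars and L7, since L5, L6 and L8 were at 0.673, 0.869 and 0.562 CPM. In the low boars it had 72 to 243 reads and in the high boars 41 to 103. SCAP, the escort that carries both factors to the Golgi, was at 22.5 to 31.4 and 7.97 to 16.5 CPM, with -0.92 ± 0.23 (SE, adjusted p = 0.0237). MBTPS1, the first of the proteases that release them, was at 16.7 to 21.5 and 11.5 to 14.2 CPM, with -0.57 ± 0.16 (SE, adjusted p = 0.033). For these 4 genes the groups did not overlap, as for 20.0% of all genes in that direction. LSS had the same direction, while the other 7 synthesis enzymes described above had positive values.

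The retention proteins INSIG1 and INSIG2 did not pass, at 0.15 ± 0.22 and 0.35 ± 0.16 (SE). Of 10 genes of uptake, storage and efflux tested, 3 were lower and 0 higher, beside 15.8% of all genes lower and 4.82% higher. NR1H2, the sterol receptor LXR beta, had a log2 fold change of -1.44 ± 0.28 (SE, edgeR quasi-likelihood, adjusted p = 0.0208). LIPE, which frees cholesterol from its esters, was at 57.3 to 73.6 CPM in the low and 15.5 to 43.1 CPM in the high boars, with -1.19 ± 0.28 (SE, adjusted p = 0.022). An exporter, ABCG1, had -1.14 ± 0.36 (SE, adjusted p = 0.0438), with overlapping groups at 1.83 to 5.51 CPM in the low and 1.16 to 2.3 CPM in the high boars. Like FDPS, both ABCG1 and NR1H2 were measured at low levels. NR1H2 was at 3.7 to 6.25 CPM in the low and 1.31 to 2.43 CPM in the high boars.

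These calls depended on single boars, as did those over all genes. Of the 7 genes of the 3 lists that passed in contrast (i), 0 passed without L3 or without L6, when 1 gene of all those tested passed in each case. The fold changes kept their sign and much of their size, with NR1H2 at -1.36 without L3 and -1.34 without L6, SREBF1 at -1.30 and -1.45, SCAP at -0.87 and -0.98, SREBF2 at -0.61 and -0.67, and LIPE at -1.17 and -1.05. Without L8, 3 passed (SCAP, LIPE and NR1H2), when 1228 genes of all passed against 2682 with L8, and without L1, 4 passed.

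In contrast (iii) and in Duroc, 0 genes of these 3 lists passed (edgeR quasi-likelihood, likelihood ratio test and DESeq2). The quasi-likelihood test called 0% of all genes in both, so its 0 says nothing about the lists. At an unadjusted p under 0.05 it was 5 and 0 genes, against 19.8% and 1.21% of all genes. In contrast (iii), SREBF2, SREBF1 and MBTPS1 had log2 fold changes of -0.10 ± 0.24, -0.28 ± 0.43 and -0.11 ± 0.19 (SE). SCAP had -0.49 ± 0.20 and ABCG1 -0.34 ± 0.40 (SE), with overlap. LIPE (-0.91 ± 0.33) and NR1H2 (-0.83 ± 0.34) were lower without overlap, as were 8.71% of genes. Between breeds, 1 gene passed. MVK, which phosphorylates mevalonate, averaged 11.3 ± 3.54 CPM (SD, n = 8) in Duroc and 6.04 ± 2.19 CPM (SD, n = 13) in Landrace, a log2 fold change of 0.90 ± 0.22 (SE, edgeR quasi-likelihood, adjusted p = 0.0242). The ranges overlapped, at 5.97 to 16.1 and 2.9 to 9.4 CPM, and MVK did not pass without D5 or without D9.

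**Figure D5:**
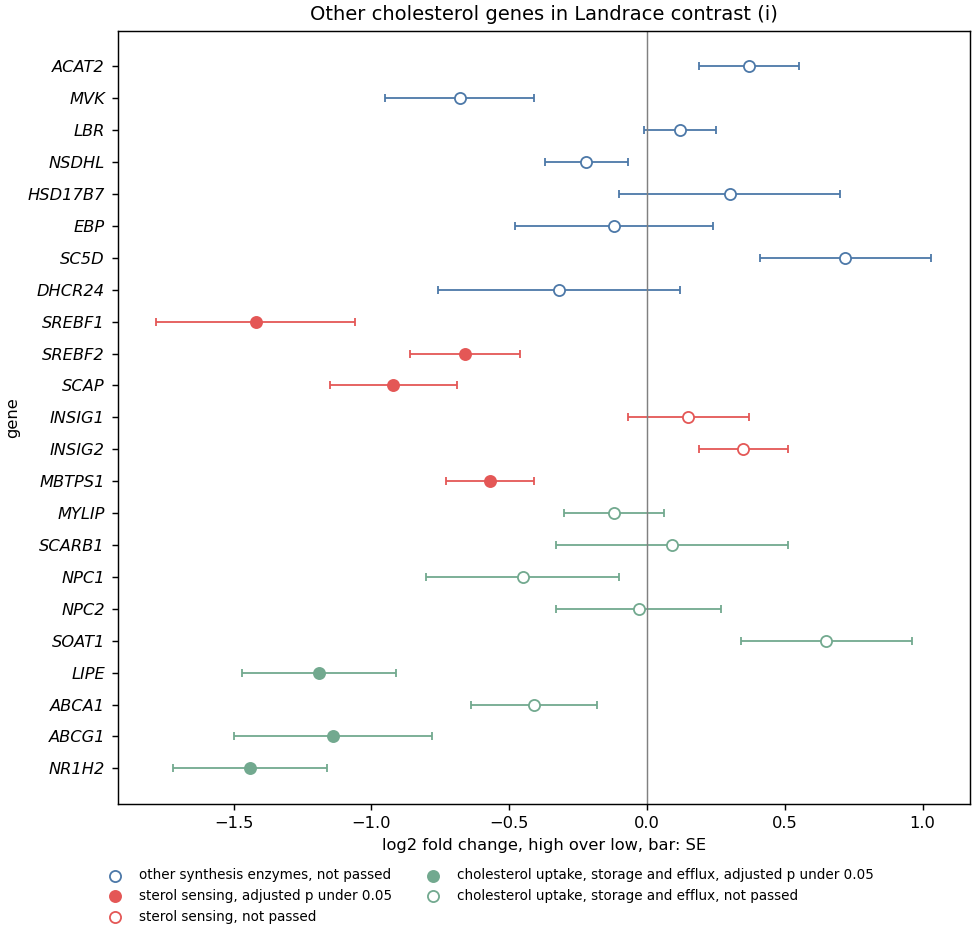
Log2 fold change, high over low, with its SE in contrast (i) for 23 other cholesterol genes, by list; filled points passed at an adjusted p under 0.05 (edgeR quasi-likelihood). The 7 filled points lie between -1.44 and -0.57, and SC5D lies at 0.72.

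As a description over the 21 libraries, with each breed's mean removed, the genes whose log2 CPM followed the mean of the 8 enzymes most closely included FDX1 (Pearson's r = 0.84), the ferredoxin that passes electrons to mitochondrial steroid-making enzymes, PANK1 (0.81), a kinase of coenzyme A synthesis, the lysosomal enzyme FUCA1 (0.80) and NAMPT (0.80) of NAD synthesis. Of the late enzymes, SC5D had r = 0.93 with MSMO1. It was at 27.5 to 43 CPM in the low and 32.3 to 92.3 CPM in the high boars of contrast (i), and at 23 to 43.3 and 50.6 to 66.5 CPM in those of contrast (iii).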

How the data were processed

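The authors sequenced testis RNA with a stranded mRNA kit (100 bp single reads), trimmed the reads with Trimmomatic 0.36, aligned them with STAR to Sscrofa11.1 and counted them with HTSeq (reverse strand) on Ensembl genes. The deposited files hold raw counts for 25880 genes in each of 21 libraries, without normalization, and 21.5 to 30.2% of reads fell on no feature. Groups came from the GEO labels. The members, lists and tests were chosen with earlier results of these data known, and the relations with marker lists were added after values were seen.

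The main test was edgeR 4.0.16's quasi-likelihood test (R 4.3.3), with TMM scaling, a Benjamini-Hochberg threshold of 0.05 over all genes tested, and a filter of 1 CPM or more in 4 libraries, or in 8 for the breeds. DESeq2 1.42.0, the likelihood ratio test that the study used, RLE scaling, no filter and leaving out each boar were alternatives. CPM and log2 CPM (prior count 2) were scaled over the 21 libraries. Exact permutation tests were two-sided (scipy 1.17.1). The fits were tested on simulated data. Pairs within groups were not duplicates, with r of log2 CPM from 0.95 to 0.985 over 34 pairs. Replicates are single boars with 1 library each.

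Symbols came from an identifier table. PMVK, MBTPS2, HSD3B1, PIWIL1, PRM3 and VWF were not matched. Named genes were the 8 members, SREBF2 and SREBF1, up to 4 genes with the smallest p among those that passed in each other list and comparison, and genes among the 5 most like the members' mean. Markers, INSIG1, INSIG2 and SC5D are named beside these. A few other genes are counted within their lists but not reported singly. HTSeq drops reads that map to several places (5.83 to 8.28% here), so genes with near-identical copies may be undercounted.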

Additional observations from a re-analysis of the deposited data

Results flagged for a closer look

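FDFT1 in D1 was at 135 CPM, far below the 158 to 167 CPM of the 4 other Duroc boars labelled High. LSS in L8 was at 1.96 CPM, against 5.91 to 6.77 CPM in the 3 other high boars of contrast (i). In both cases 1 boar lay farther from its group than a test for a single outlying value allows. Over the 40 groups of values examined, chance gives about 2 such cases, and 2 were found.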

How the results depend on the processing

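Each choice was changed alone. The count of the 8 enzymes called in contrast (i) was 0, and became 2 with DESeq2, 3 with the likelihood ratio test, 2 with no filter on low counts, and 0 to 3 when 1 boar was left out (1 without L2, 3 without L5). In contrast (iii) it was 0, and 1 with DESeq2 as with the likelihood ratio test. In Duroc and between breeds it was 0 under each alternative. The other cholesterol genes called were 7 in contrast (i) and 0 to 8 with 1 boar left out, and 1 between breeds, 2 with no filter and 0 to 1 with 1 boar left out. The pairs correlated over Duroc boars were 2, and 0 to 3 with 1 boar left out: 0 without D2, D3, D4, D7 or D9, 1 without D1 or D6, and 3 without D5.

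Some fold changes changed sign. FDPS went to -0.11 without L6 in contrast (i) and to -0.35 without L13 in contrast (iii). Leaving out 1 Duroc boar gave log2 fold changes from -0.35 to 0.37 for IDI1, -0.19 to 0.37 for FDPS (4 fits, since FDPS did not pass the filter in the others), -0.09 to 0.13 for SQLE, -0.63 to 0.84 for LSS, -0.06 to 0.24 for CYP51A1 and -0.16 to 0.31 for MSMO1. Between breeds, SQLE ranged from -0.04 to 0.06 and CYP51A1 from -0.05 to 0.07 with 1 boar left out, and with high or low as a covariate they were -0.01 and 0.00. SQLE was -0.01 with no filter. The cause of these changes was not tested. FDPS, at 26 to 423 reads, has the least depth. No paired analysis was possible because the groups share no replicate numbers.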
